A study of Rattus norvegicus with 20 samples.

Results

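Early preneoplastic foci (EPFs) were compared with CK-19-negative preneoplastic nodules, the early and the later lesion of the Resistant-Hepatocyte (R-H) model of rat liver carcinogenesis. The arrays were taken by their source label alone, with no measured value used, and gave 5 EPF arrays and 5 CK-19-negative nodule arrays of the 20 in the series. The others held 5 CK-19-positive nodules and 5 control livers, whose means are given here only as background. Every lesion came from male Fischer rats that had received a single dose of DENA (diethylnitrosamine), a diet with 2-AAF (2-acetylaminofluorene) and a partial hepatectomy (PH), and no source used here gives their age. EPFs were laser-microdissected 1 week after PH and pooled, so that each EPF array is a pool of small foci. Nodules were also laser-microdissected, but later, 10 weeks after DENA, when the rats had returned to a basal diet. Each of these arrays held a single nodule that had not stained for CK-19. A gene is measured by its normalized array signal, a fluorescence intensity, and differences are given on the log2 scale as EPFs minus CK-19-negative nodules.

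In the R-H model DENA initiates a few hepatocytes, 2-AAF blocks the division of the surrounding cells, and PH drives the resistant initiated cells to divide as basophilic foci that stain for GSTP, the placental form of glutathione S-transferase. Most of these lesions later remodel towards normal-looking liver, whereas a minority persists and can progress. CK-19, a keratin of bile duct and progenitor cells, divides the nodules into a positive and a negative class. The adult male rat liver is also known for a set of genes that the pulsatile secretion of growth hormone keeps on, among them Cyp2c11 and the urinary proteins of the Mup family.

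Arrays of a group resembled each other closely. The lowest correlation of log2 signals was 0.982 between EPF arrays and 0.962 between nodule arrays, and EPF arrays correlated with nodule arrays at 0.901 to 0.938 over the 6102 genes tested. The median SD of a gene was 0.136 in EPFs and 0.193 in CK-19-negative nodules on the log2 scale. CK-19-negative nodules 1 and 2 stood farthest from the rest of their group, with a median absolute log2 difference of 0.202 and 0.208, against 0.113 to 0.179 for the other nodules and 0.0962 to 0.137 for the EPF pools. All EPF arrays lay on a chip of their own, whereas nodules 1 to 4 shared 1 chip and nodule 5 another. EPFs also came from an earlier time after DENA than the nodules, and the age of the rats may differ with it. The chip, the time since DENA, the age, the recent 2-AAF and PH, the pooling and the type of lesion therefore cannot be told apart. No label says which rat an array came from, and p-values measure the spread between arrays, which may in part be technical. The number of arrays limits the precision.

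Gstp1 and Krt19, which mark the lesions and divide the nodules, were read first. Gstp1, which encodes GSTP, had signals of 43418, 42071, 44883, 44883 and 42749 in EPFs, against 26758, 22621, 22294, 21344 and 19371 in CK-19-negative nodules. The groups did not overlap, and the difference was 0.96 (SE 0.11, adjusted p = 3.55e-07 from limma), just under 2-fold. EPF signals reached the highest value that the normalization gives, so that the size is not exact, and a second Gstp1 probe differed by 0.50, while another probe lay at background in both groups, with means of 135 in EPFs and 137 in CK-19-negative nodules. Without nodule 1 the difference was 1.03. Control livers averaged 379 ± 71.8 (SD, n = 5). Krt19, which encodes CK-19, had signals of 371, 1118, 635, 435 and 512 in EPFs and 197, 1181, 578, 199.8 and 516 in CK-19-negative nodules. The groups overlapped, the difference was 0.42 (SE 0.38, adjusted p = 0.378 from limma), and nodules 1 and 4 were lowest. The exact two-sided permutation test gave p = 0.508 for Krt19. CK-19-positive nodules averaged 4054 ± 2066 and control livers 224 ± 17.7 (SD, n = 5 each). All EPF pools and nodules 2, 3 and 5 lay above the highest control liver, at 248, and nodules 1 and 4 below the lowest, at 206.

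Of 13337 genes named on the array, 6102 had a signal over 200 on at least 5 of the 20 arrays and were tested. A gene is called here at an adjusted p under 0.05 and a difference of at least 2-fold. By this rule 544 genes were called, 8.92% of those tested, with 252 higher (4.13%) and 292 lower (4.79%) in EPFs. Counts of called genes in the lists below are to be read beside these shares. The falls were larger than the rises: 44 genes fell and 20 rose at least 4-fold, and 14 fell and 5 rose at least 8-fold. The arrays of the groups did not overlap for 519 of the 544, while 39.0% of all genes tested did not overlap. At the adjusted p alone 1628 of the 6102 genes tested were higher and 1570 lower. List counts at the adjusted p alone are to be read beside these larger totals. The median difference over all genes tested was -0.01. In bulk RNA of a lesion, fewer cells of a type and less RNA per cell cannot be told apart.

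**Figure D1:**
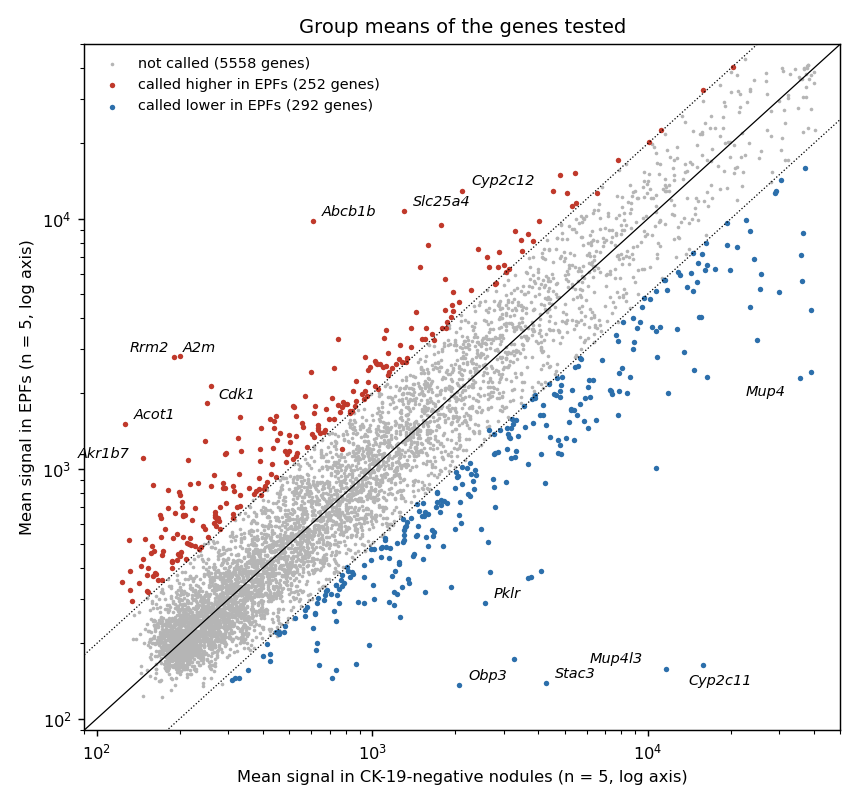
Mean signal of each of the 6102 genes tested in EPFs (vertical, n = 5 pools) against CK-19-negative nodules (horizontal, n = 5), both on log axes, with the line of equality and dotted lines at 2-fold. Of the called genes, 252 lie above the diagonal (red) and 292 below it (blue), and Cyp2c11, Mup4l3 and Stac3 lie near the background level in EPFs.

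The largest rise was that of Abcb1b, which encodes a P-glycoprotein that pumps drugs out of cells. Its signals were 7339, 9633, 10694, 12347 and 8808 in EPFs, against 141, 1309, 525, 217 and 849 in CK-19-negative nodules. Every EPF pool lay above every nodule, and the difference was 4.43 (SE 0.39, adjusted p = 6.24e-09 from limma), or 21.5-fold. The EPF pools lay close together, whereas the nodules spanned a 9.30-fold range in which nodules 1 and 4 were low. CK-19-positive nodules averaged 5458 ± 908 and control livers 199 ± 49.1 (SD, n = 5 each). Rrm2, the small subunit of ribonucleotide reductase that makes deoxynucleotides for DNA synthesis, had signals of 3425, 2226, 2265, 2322 and 3869 in EPFs and 171, 231, 196, 199.9 and 205 in CK-19-negative nodules. The pools were all far above the nodules, which lay about the background level of 200, with a difference of 3.78 (SE 0.17, adjusted p = 4.4e-13 from limma).

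A2m, a protease inhibitor made by fetal and inflamed rat liver, had signals of 3969, 2297, 3465, 3707 and 521 in EPFs, against 128, 209, 211, 191 and 211 in CK-19-negative nodules. Pool 5 was far below the other pools but still above every nodule, and the difference was 3.61 (SE 0.36, adjusted p = 3.42e-08 from limma). Slc25a4, a mitochondrial carrier that exchanges ADP and ATP, averaged 10688 ± 1919 in EPFs and 1298 ± 542 in CK-19-negative nodules (n = 5 each, ± SD), a difference of 3.14 (adjusted p = 4.23e-10 from limma). The aldo-keto reductases Akr1b7 and Akr1b8, which reduce reactive aldehydes, rose together in EPFs. Akr1b7 had signals of 1279.8, 843, 918, 1160.3 and 1338 in EPFs and 182, 136, 145, 126 and 145 in CK-19-negative nodules. All nodules lay under 200, so that the rise was at least 5.45-fold, with an adjusted p of 4.4e-13 from limma. Akr1b8 had signals of 10141, 7686, 7141, 6459 and 7778 in EPFs, against 1667, 2932, 1543, 324 and 1521 in CK-19-negative nodules. Nodule 4 was lowest, the groups did not overlap, and the difference was 2.58 (adjusted p = 2.63e-06 from limma). Acot1, which releases fatty acids from acyl-CoA, was at least 6.99-fold higher in EPFs (adjusted p = 3.36e-12 from limma), and so was Nhej1, a DNA end-joining factor, by at least 4.21-fold (adjusted p = 4.74e-12). In these bounds a group whose arrays all lie under 200 is set to 200. Akr1b7, Acot1 and Nhej1 were tested only because their EPF signals passed 200 on 5 arrays, and so had to be higher there. Other rises at the top were Rbp7, a retinoid-binding protein (2.78), Atp6v1d, a subunit of the vacuolar proton pump (2.42), and Cyp17a1, a steroid hydroxylase (2.24).

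The largest fall was that of Cyp2c11, the male-specific steroid hydroxylase of rat liver. Its signals were 151, 170.0, 167, 187 and 146 in EPFs, against 4269, 15967, 22156, 18672 and 17975 in CK-19-negative nodules. All EPF pools lay under 200, so that Cyp2c11 was at least 69.2-fold lower in EPFs (adjusted p = 9.2e-12 from limma), and nodule 1 was lowest of the nodules. Its mean was 2659.5 ± 1491 in CK-19-positive nodules and 33452 ± 6596 in control livers (SD, n = 5 each). Stac3, known as an adaptor protein of muscle, had signals of 148, 128, 142, 136 and 139.6 in EPFs and 2932, 3745, 5971, 4028 and 4596 in CK-19-negative nodules. It was at least 20.7-fold lower in EPFs (adjusted p = 7.49e-11 from limma), with no overlap. Mup4, a urinary protein that carries pheromones, had signals of 2202, 1381, 2368, 2516 and 3037 in EPFs and 26428, 33953, 37745, 39815 and 40146 in CK-19-negative nodules. All nodules were bright and all pools far below them, with a difference of -3.98 (SE 0.23, adjusted p = 1.48e-11 from limma). Mup4l3 was at least 46.5-fold lower and Obp3, a lipocalin of the same family, at least 8.03-fold lower in EPFs, with an adjusted p of 3.57e-09 and 3.8e-07 from limma. The probes of this family and of the Cyp2c family can hybridise to near-identical copies, so that single members are uncertain.

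**Figure D2:**
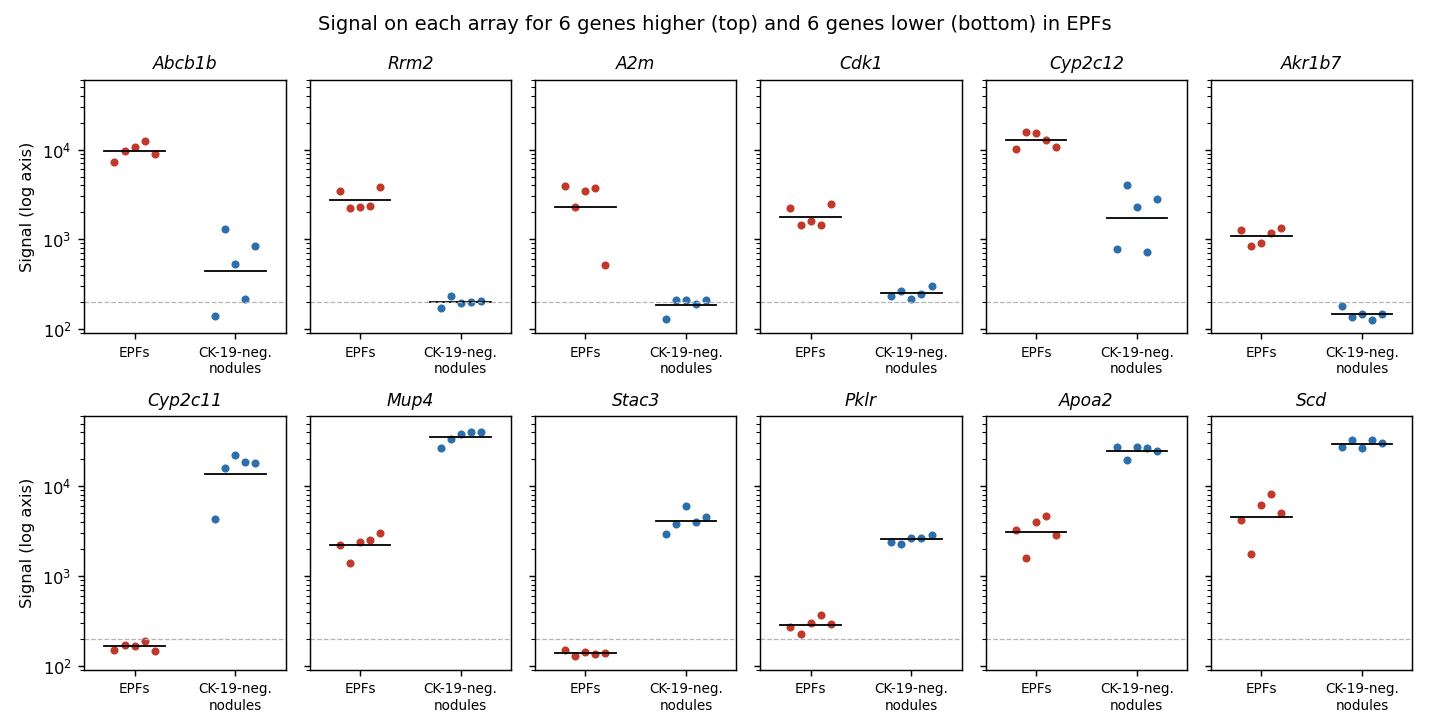
Signal on each array (log axis) for 6 genes higher and 6 genes lower in EPFs, EPF pools 1 to 5 (red) on the left and CK-19-negative nodules 1 to 5 (blue) on the right. The line is the mean on the log scale and the dashed line the signal level of 200, under which Cyp2c11 and Stac3 lie in every EPF pool and Akr1b7 in every nodule.

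Secreted and metabolic proteins of the hepatocyte were among the other large falls. Serpina3c, a serine protease inhibitor, had signals of 2812, 2103, 3808, 4473 and 8391 in EPFs, against 42071, 40905, 33080.1, 37124 and 41539.8 in CK-19-negative nodules. The groups were far apart, and pool 5 was highest of the pools, with a difference of -3.33 (adjusted p = 2.61e-10 from limma). Falls of similar size were those of Serpina4, the kallikrein inhibitor kallistatin (-3.40), the carboxylesterase Ces1d (-3.47), the sulfotransferase Sult1c3 (-3.38), Cyp2b15 (-3.32), the macroglobulin Mug2 (-2.84) and Apoa2 (-3.02), a protein of high-density lipoprotein. Their adjusted p from limma ranged from 4.74e-12 for Serpina4 to 1.12e-07 for Apoa2. The dehydrogenase gene Dhrs7l1 was at least 15.1-fold lower by its brightest probe (adjusted p = 1.64e-09 from limma), while a second probe of that gene lay near background in both groups, with a mean of 150 in EPFs and 143 in CK-19-negative nodules.

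Genes of the cell cycle were higher in EPFs. Progression through mitosis is driven by Cdk1, the kinase that brings cells into mitosis, and by proteins that build and divide the spindle. Many such genes share short promoter elements that are bound by NF-Y, by the DREAM complex or by E2F. Promoters are shown for those 4 of the named cell cycle and replication genes that hold more than 1 kind of these elements in the promoter table. They run from 250 bases before to 50 bases after the start of the gene in the RefSeq annotation of build GRCr8, written along the gene's strand. Capitals mark the cell cycle homology region (CHR), spelled TTTGAA with the variant TTCGAA, the NF-Y box CCAAT, and the E2F element, spelled TTTGGCGC with the variant TTTCGCGC, each on either strand, so that CCAAT on the other strand reads ATTGG. Cdk1 lies at chr20:19265043-19265342 (plus strand), Prc1, a regulator of cytokinesis, at chr1:143659231-143659530 (plus strand), Cks2, a small subunit of cyclin-dependent kinases, at chr17:13727470-13727769 (minus strand), and Mcm6, a subunit of the replicative helicase, at chr13:42404303-42404602 (minus strand).
Cdk1: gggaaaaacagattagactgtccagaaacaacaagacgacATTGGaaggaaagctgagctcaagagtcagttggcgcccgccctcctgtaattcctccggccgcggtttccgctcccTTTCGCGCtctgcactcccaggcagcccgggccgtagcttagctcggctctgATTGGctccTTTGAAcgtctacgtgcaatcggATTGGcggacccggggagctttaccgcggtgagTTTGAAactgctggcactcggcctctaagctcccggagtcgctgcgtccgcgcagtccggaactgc
Prc1: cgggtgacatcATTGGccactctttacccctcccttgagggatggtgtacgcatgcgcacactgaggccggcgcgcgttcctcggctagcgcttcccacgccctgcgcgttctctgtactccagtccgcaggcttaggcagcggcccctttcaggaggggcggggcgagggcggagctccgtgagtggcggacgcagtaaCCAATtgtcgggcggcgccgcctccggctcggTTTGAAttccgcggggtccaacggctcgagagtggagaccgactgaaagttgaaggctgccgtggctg
Cks2: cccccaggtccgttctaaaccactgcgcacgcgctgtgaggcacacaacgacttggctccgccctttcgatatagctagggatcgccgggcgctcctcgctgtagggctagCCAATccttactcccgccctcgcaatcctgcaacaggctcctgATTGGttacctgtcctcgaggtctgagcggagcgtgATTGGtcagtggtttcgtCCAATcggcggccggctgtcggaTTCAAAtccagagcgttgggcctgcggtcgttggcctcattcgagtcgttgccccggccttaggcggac
Mcm6: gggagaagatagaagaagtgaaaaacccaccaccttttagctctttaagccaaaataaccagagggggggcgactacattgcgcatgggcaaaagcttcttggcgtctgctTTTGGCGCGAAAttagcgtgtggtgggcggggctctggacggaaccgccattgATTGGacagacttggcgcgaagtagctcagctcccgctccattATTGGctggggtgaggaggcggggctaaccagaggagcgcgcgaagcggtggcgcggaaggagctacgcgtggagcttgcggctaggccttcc

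In the Cdk1 promoter a CHR began 72 and another 16 bases before the start and an E2F element 133 bases before it. Prc1 and Cks2 each held a CHR close to the start, 18 and 19 bases before it, with CCAAT further upstream. Mcm6 held no CHR but 2 overlapping E2F elements and 2 CCAAT. Of the 23 called cell cycle genes, 17 had a promoter in the table. A CHR was found in 13 of these 17 (76.5%), against 13.6% of the 5130 genes tested that have a promoter and 21.0% of all 27457 genes of the table. CCAAT was found in 13 of 17 (76.5%), against 39.9% of genes tested and 39.6% of all genes, and both elements together in 11 of 17 (64.7%), against 5.93% and 9.15%. Over all tested cell cycle genes with a promoter, called or not, the CHR was found in 16 of 23 (69.6%), CCAAT in 16 of 23 and both in 13 of 23 (56.5%). The E2F element was found in 4 of 9 called replication genes (44.4%), against 1.68% and 0.892%. These matches describe the letters of the promoters, and no binding was measured.

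Of 29 cell cycle genes tested, 23 rose and none fell, with a median difference of 1.45 beside -0.01 over all genes tested. Of these 29, 16 passed the filter only through their EPF signals and so had to be higher there. Without the filter the count was the same 23 among 42 members on the array, with a median of 1.12. Cdk1 had signals of 2211, 1445, 1598, 1425 and 2485 in EPFs, against 231, 264, 218, 243 and 299 in CK-19-negative nodules. All nodules lay near background and all pools well above it, with a difference of 2.84 (SE 0.18, adjusted p = 3.32e-11 from limma). Prc1 had signals of 1518, 830.1, 768, 709 and 1570.5 in EPFs and 211, 210.4, 193, 240.5 and 215 in CK-19-negative nodules, with pools 1 and 5 highest and no overlap (2.25, adjusted p = 1.1e-09 from limma). Aurkb, the kinase of the chromosomal passenger complex, rose by 2.14 and Cks2 by 1.99, with an adjusted p of 2.4e-10 and 4.23e-10. The cyclins Ccna2 (1.92) and Ccnb2 (1.80), the checkpoint kinase Bub1 (1.61) and Spc25 (1.93), which ties chromosomes to the spindle, were also called. Members that were not called included Cdk4 (0.33), Ccne1 (0.23) and Cks1b (0.06). In CK-19-positive nodules Cdk1 averaged 400.2 ± 123 and in control livers 233 ± 40.4 (SD, n = 5 each).

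Of 24 DNA replication and nucleotide synthesis genes tested, 11 rose and none fell, with a median of 1.00, and 4 of the 24 passed the filter only through EPFs. Without the filter the median over 36 members was 0.70. Pcna, the sliding clamp of DNA polymerases, had signals of 7657, 4589.8, 5301, 5527 and 8951 in EPFs and 1459, 1525, 1531, 1440.1 and 1488 in CK-19-negative nodules. The nodules lay within a 1.06-fold range and every pool far above them, with a difference of 2.06 (SE 0.15, adjusted p = 2.52e-10 from limma). Mcm6 had signals of 1676, 627, 896, 991 and 1599 in EPFs and 298, 258, 288, 300.3 and 332 in CK-19-negative nodules, a difference of 1.88 (adjusted p = 3.42e-08 from limma). Mcm2 (1.25) of the same helicase, the flap nuclease Fen1 (1.26), the clamp loader subunit Rfc4 (1.36), the thymidylate synthase Tyms (1.18) and Orc6 of the origin recognition complex (1.19) were called as well. Many of these genes lie near background in the nodules, so that their folds are understated and their counts move with the treatment of low signals. With the filter of the study 4 cell cycle and 4 replication genes were called, and with signals under 300 raised to 300 the counts were 11 and 6.

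The EPF pools were not alike in these genes. Pool 1 was among the 2 highest pools for 22 of the 23 called cell cycle genes and pool 5 also for 22, with a median deviation from the mean of the pools of 0.38 in each, while pool 2 was lowest for 12. Of the 11 called replication genes, pool 1 was among the 2 highest for 10 and pool 5 for 11. The median deviations of the nodules lay between -0.06 and 0.09 for the cell cycle genes.

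p53 is activated by DNA damage and turns on genes that halt the cell cycle or repair damage. Of 10 p53 response genes tested, 5 rose and none fell, with a median of 0.98 (0.87 with bounded genes at their bound). Without the filter 5 of the 16 members on the array rose and the median was 0.35. Mdm2, which encodes the ligase that degrades p53, had signals of 1253, 1977, 1454, 1763 and 1476 in EPFs, against 449, 491, 418, 363 and 399 in CK-19-negative nodules. The difference was 1.89 (SE 0.14, adjusted p = 2.98e-10 from limma), with no overlap. Ccng1, a cyclin that p53 induces, rose by 2.15 (adjusted p = 2.92e-11), Phlda3, an inhibitor of AKT signalling, by 2.03 (adjusted p = 4.74e-12) and the nuclease gene Aen by 1.10. Cdkn1a, the cell cycle inhibitor p21, had signals of 277, 344, 361, 367 and 405 in EPFs and 131, 124, 139, 108 and 117 in CK-19-negative nodules. All nodules lay under 200, and the rise was at least 1.74-fold (adjusted p = 9.53e-11 from limma). It was the 1 member that passed the filter only through its EPF signals and so had to be higher there. With signals under 300 raised to 300 it was 0.24 and no longer called. Pool 1, high for the cell cycle genes, was lowest of the pools for 4 of the 5 called p53 genes. Gadd45a (0.87), Gdf15 (0.87) and Sesn1 (-0.37) were not called.

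NRF2 is the transcription factor that turns on detoxifying and antioxidant enzymes, through the antioxidant response element (ARE). Gpx2, a glutathione peroxidase, is shown because its promoter holds this element. It lies at chr6:101229984-101230283 (minus strand) in build GRCr8 of RefSeq. Capitals mark the ARE core TGACNNNGC on the other strand, 13 bases before the start.
Gpx2: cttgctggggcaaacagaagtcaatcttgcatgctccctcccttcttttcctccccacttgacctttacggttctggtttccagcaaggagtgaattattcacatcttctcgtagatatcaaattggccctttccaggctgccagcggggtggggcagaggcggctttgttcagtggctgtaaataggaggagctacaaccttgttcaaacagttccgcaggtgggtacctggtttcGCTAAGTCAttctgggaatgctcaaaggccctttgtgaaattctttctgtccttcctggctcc

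Gpx2 had signals of 3949.8, 3315, 3176, 3137 and 3162 in EPFs, against 1059, 1161, 801, 1016 and 1491 in CK-19-negative nodules. The difference was 1.62 (adjusted p = 4.1e-08 from limma), and the groups did not overlap. Of 44 NRF2 targets and detoxification genes tested, 5 rose (11.4%) and 1 fell (2.27%), with a median of 0.44. At the adjusted p alone 26 were higher and 5 lower, beside 1628 and 1570 of all 6102 genes tested. Besides Abcb1b and Akr1b8 the called rises were Gsta3 (1.64), a glutathione S-transferase, and the carbonyl reductase Cbr1 (1.61). The fall was that of Gstm7, another glutathione S-transferase, with signals of 317, 238, 339, 361 and 358 in EPFs and 1941, 1302, 1730.2, 1677 and 1123 in CK-19-negative nodules (-2.26, adjusted p = 2.52e-10 from limma). Nqo1, a quinone reductase, averaged 7301 ± 1876 in EPFs and 4125 ± 782 in CK-19-negative nodules (n = 5 each, ± SD). Its difference of 0.80 (adjusted p = 0.000524 from limma) was under 2-fold, and pool 2 lay among the nodules. The ARE core was found in 14 of 36 genes of the tested list with a promoter (38.9%) and in 2 of the 5 called rises, against 16.1% of genes tested and 13.1% of all genes. The count of 5 rises was 8 without nodule 1 or without nodule 2.

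Sex-dimorphic and growth hormone dependent genes had the lowest median of the 36 lists, -1.66. Of 27 tested, 2 rose (7.41%) and 19 fell (70.4%) in EPFs, beside 4.13% and 4.79% of all genes tested. The groups did not overlap for 17 of the 19, and for 519 of all 544 called genes. The list shares Cyp2c11, Cyp2c12, Cyp2c7, Cyp3a2 and others with the list of cytochromes P450. Cyp2c12, the female-specific counterpart of Cyp2c11, had signals of 10079, 15771, 15452, 12830.0 and 10694 in EPFs, against 773, 3999, 2268, 724 and 2826 in CK-19-negative nodules. All pools lay above all nodules, of which 1 and 4 were lowest, and the difference was 2.90 (SE 0.36, adjusted p = 8.09e-07 from limma). CK-19-positive nodules averaged 13463 ± 2485 and control livers 838 ± 253 (SD, n = 5 each). The other rise was the sulfotransferase Sult2a6 (1.47). Falls included the male-predominant steroid dehydrogenase gene Hsd3b5 (-2.01), Hsd17b2 (-2.63), Hao2, a hydroxy acid oxidase (-2.32), Rgn, the calcium-binding protein regucalcin (-1.66), and Igfals, a carrier of circulating insulin-like growth factor that growth hormone induces (-1.90). The receptor Ghr (-0.92) and the signal transducer Stat5b (-0.16) were not called.

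Of 43 cytochromes P450 tested, 2 rose (4.65%, Cyp2c12 and Cyp17a1) and 15 fell (34.9%), with a median of -0.53. Cyp2c7 had signals of 4897, 7778, 6859, 7231 and 9187 in EPFs and 33686, 34209.8, 35878, 38696 and 37124 in CK-19-negative nodules. The nodules lay near the top of the scale within a 1.15-fold range, and the difference was -2.35 (adjusted p = 5.33e-06 from limma). A second Cyp2c7 probe lay at background in both groups, with means of 142 in EPFs and 153 in CK-19-negative nodules. Cyp3a2, a male-predominant steroid hydroxylase, had signals of 4864, 1682, 8034, 10027 and 6538 in EPFs and 17342, 22414, 22854, 19371 and 17424 in CK-19-negative nodules. The pools were spread over a 5.96-fold range, with pool 2 lowest and pool 4 highest, all of them under the nodules (-1.89, SE 0.46, adjusted p = 0.00147 from limma). Members of the Cyp2d family also fell, among them Cyp2d1 (-1.80) and Cyp2d5 (-1.75). Cyp2e1 (-0.17), Cyp1a2 (-0.50) and the reductase Por (0.16), which passes electrons to these enzymes, were not called.

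**Figure D3:**
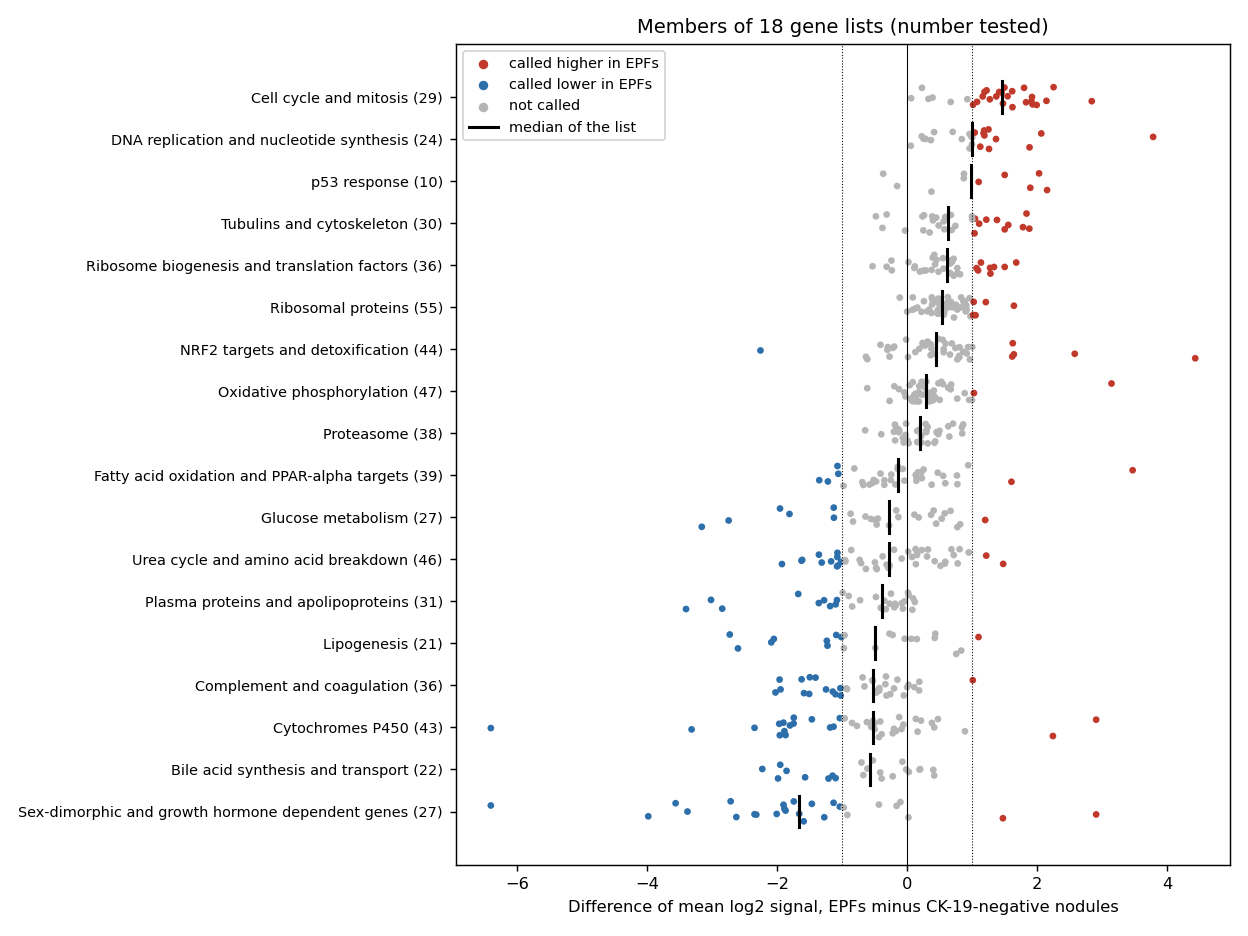
Difference of mean log2 signal (EPFs minus CK-19-negative nodules) of each tested member of 18 gene lists, with called members in red (higher in EPFs) or blue (lower), dotted lines at 2-fold and a black bar at the median of the list. Medians run from 1.45 for the cell cycle list to -1.66 for the sex-dimorphic list.

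Lipogenesis turns excess glucose into fatty acids under the control of Srebf1 and Thrsp. Of 21 lipogenic genes tested, 1 rose (4.76%) and 8 fell (38.1%) in EPFs, with a median of -0.49. Scd, the desaturase that makes oleate, had signals of 4181, 1742, 6236, 8134 and 5068 in EPFs, against 27334, 32537, 26573, 33080.1 and 30673 in CK-19-negative nodules. Thrsp, which responds to thyroid hormone and carbohydrate, had signals of 2464, 1462, 6836, 10391 and 5104 in EPFs and 24330.2, 24959.7, 28715, 25191 and 24624 in CK-19-negative nodules. In both genes pool 2 was lowest, pool 4 was highest and no pool reached a nodule, and the differences were -2.73 (adjusted p = 1.96e-08) and -2.60 (adjusted p = 2.87e-06 from limma). Acly, which supplies cytosolic acetyl-CoA, fell by 2.09 and Srebf1 fell by 2.05 on the log2 scale, while Dgat1, which makes triglyceride, rose by 1.10. Of 15 cholesterol synthesis genes 1 fell (6.67%, beside 4.79% of all genes), the sterol reductase gene Tm7sf2 (-1.90). A second probe of Tm7sf2 differed by -0.46 (adjusted p = 0.317 from limma). Of 39 genes of fatty acid oxidation and PPAR-alpha, 2 rose (5.13%, near the 4.13% of all genes) and 4 fell (10.3%, beside 4.79%). Of the 39, 3 passed the filter only through their EPF signals and so had to be higher there, Acot1 among them. Another 1 passed only through CK-19-negative nodules. Beside Acot1 the rise was Ucp2, a mitochondrial carrier (1.60, adjusted p = 4.99e-08 from limma), and the largest fall was Acsl1, which activates fatty acids (-1.35).

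Of 27 genes of glucose metabolism tested, 1 rose (3.70%) and 6 fell (22.2%). Pklr, the pyruvate kinase of liver, had signals of 272, 226, 296, 365 and 288 in EPFs, against 2379.7, 2259, 2664, 2669.9 and 2839 in CK-19-negative nodules. The groups were far apart and each was tight, with a difference of -3.16 (SE 0.19, adjusted p = 2.91e-11 from limma). The glycogen-targeting subunit Ppp1r3b (-2.75), glucose-6-phosphatase G6pc1 (-1.96) and its transporter Slc37a4 (-1.81) fell as well. Aldoa, the fetal and muscle aldolase, rose, with signals of 2503, 2556, 1943, 1764 and 2307 in EPFs and 1105, 805, 869.8, 873 and 1175 in CK-19-negative nodules. Its difference was 1.20 (adjusted p = 9.9e-07 from limma) and 1.75 by a second probe. Pck1 (-0.45) and Gapdh (0.18) were not called.

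Of 46 genes of the urea cycle and amino acid breakdown, 2 rose (4.35%) and 11 fell (23.9%), with a median of -0.28. Gnmt, the methyltransferase that uses up surplus methyl groups, had signals of 4297, 3875, 3909, 4224 and 3858 in EPFs, against 15704, 14087, 16625, 14087 and 16264 in CK-19-negative nodules. No array overlapped, and the difference was -1.93 (adjusted p = 2.72e-07 from limma). Dmgdh (-1.63) of the same one-carbon route and Oat, the ornithine aminotransferase (-1.62), fell too. Got1, the cytosolic aspartate aminotransferase, was the larger of the rises. Its signals were 19504, 19708, 11946, 4256 and 19504 in EPFs and 3147, 4395, 6141, 5112 and 5294 in CK-19-negative nodules, so that pool 4 lay within the range of the nodules (1.47, adjusted p = 0.000701 from limma). The urea cycle enzymes Cps1 (0.95), Ass1 (0.22), Arg1 (0.68) and Otc (-0.50) were not called.

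Bile acids are made from cholesterol, joined to amino acids and moved by transporters. Of 22 genes tested, none rose and 8 fell in EPFs, with a median of -0.57. Baat, which conjugates bile acids with glycine and taurine, had signals of 1615, 1483, 1808, 1874 and 1433 in EPFs, against 7231, 10852, 7401, 7141 and 6349 in CK-19-negative nodules. Nodule 2 was highest, and the difference was -2.23 (adjusted p = 1.65e-10 from limma). Nr0b2, a nuclear receptor that represses bile acid synthesis, was at least 3.16-fold lower (adjusted p = 1.39e-08). The racemase Amacr (-1.99) and the uptake transporter Slco1b2 (-1.86) fell, whereas Cyp7a1 (-0.42), Cyp8b1 (-0.22) and Cyp27a1 (-0.39), which take part in the synthesis, were not called.

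Genes of the clotting and complement cascades were called lower more often than higher. Of 36 complement and coagulation genes tested, 1 rose (2.78%) and 13 fell (36.1%), with a median of -0.53. Proc, the anticoagulant protein C, had signals of 1249.8, 1327, 1168, 1416 and 1029.7 in EPFs, against 5807, 4419, 4193, 4574 and 4909 in CK-19-negative nodules. The groups did not overlap, with a difference of -1.95 (adjusted p = 2.75e-10 from limma). C8g, a chain of complement component 8 (-1.96), Klkb1, the plasma kallikrein (-2.03), and the contact factor F12 (-1.62) fell, while the fibrinogen chain Fgb (0.11) and prothrombin, F2 (-0.34), were not called. Of 31 plasma proteins and apolipoproteins, none rose and 9 fell. Apof (-1.68) and Lipc, the hepatic lipase (-1.10), were among them. Alb, the gene of albumin, averaged 31260.1 ± 3274 in EPFs and 32339 ± 5463 in CK-19-negative nodules (n = 5 each, ± SD), a difference of -0.04 (adjusted p = 0.84 from limma). Of 15 acute phase genes 2 rose (13.3%), A2m and Hamp, and 1 fell (6.67%), the interleukin-6 receptor gene Il6r (-1.08). Il6r was just under 2-fold without nodule 1 (-0.996) or 2 (-0.98). Hamp, the iron hormone hepcidin, had signals of 38458, 40146, 40905, 42071 and 41256 in EPFs and 11790.0, 17786, 24092, 22621 and 25361 in CK-19-negative nodules (1.05, adjusted p = 0.000578 from limma). EPF pools lay near the top of the scale, and without nodule 1 the difference was 0.86, under 2-fold. Stat3 (0.43), Crp (0.65) and Hp (0.02) were not called.

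Genes of protein synthesis were mostly higher by less than 2-fold. Of 36 ribosome biogenesis and translation factors, 8 rose and none fell, with a median of 0.61. Of the 36, 1 passed the filter only through its EPF signals. Nop58, of the particles that modify ribosomal RNA, had signals of 4905, 3352, 2953, 3020.1 and 3659 in EPFs, against 801, 1171, 1225, 1046 and 1342 in CK-19-negative nodules (1.68, adjusted p = 9.08e-08 from limma). Npm1, a nucleolar protein, also rose (adjusted p = 0.000353 from limma), with signals of 8709, 8067, 6443, 6433 and 7231 in EPFs and a wider spread in CK-19-negative nodules, at 2999, 4870.3, 2403, 3099.7 and 1076. Of 55 ribosomal protein genes, 5 rose (9.09%, beside 4.13% of all genes) and 46 were higher at the adjusted p alone. Of the 55 differences 53 were above 0, with a median of 0.53. Of the 5, Rps26 was under 2-fold without nodule 2 (0.99), Rpl31 without nodule 3 (0.995) and Rps12 without EPF pool 2 (0.97) or nodule 2 (0.87) or 5 (0.93). Rpl5 rose most, with signals of 665, 652, 557, 629.7 and 753 in EPFs and 176, 205, 216, 242 and 207 in CK-19-negative nodules (1.64, adjusted p = 1.89e-10 from limma). Of 47 genes of oxidative phosphorylation, 2 rose (4.26%, near the 4.13% of all genes), and 21 were higher and 1 lower at the adjusted p alone, with a median of 0.29. The 2 were Slc25a4 and the related carrier Slc25a5 (1.03), which was under 2-fold without EPF pool 2 (0.99), nodule 1 (0.95) or nodule 5 (0.98). None of 38 proteasome genes was called, with 17 higher and 2 lower at the adjusted p alone. By that rule 1628 of all 6102 genes tested were higher and 1570 lower.

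Of 30 tubulin and cytoskeleton genes tested, 10 rose and none fell, with a median of 0.63. Tubb6, a beta-tubulin, had signals of 2103, 1629, 1470.5, 1642 and 2102 in EPFs, against 372, 692, 489, 374 and 643 in CK-19-negative nodules (1.83, adjusted p = 1.96e-08 from limma). Tpm4, a tropomyosin, rose by 1.88, S100a11, a calcium-binding protein, by 1.78 and Vim, the filament protein of mesenchymal cells, by 1.55. Pool 2 had the highest signals of Vim and S100a11 among the pools, with 3869 and 4263. Of 15 chromatin genes 2 rose (13.3%), Hmgb2 (1.85), a DNA-bending protein of dividing cells, and Cbx3 (1.39), a heterochromatin protein. Of 30 genes of protein folding and stress, 2 rose (6.67%) and 3 fell (10%), beside 4.13% and 4.79% of all genes. The chaperone gene Hsp90aa1 was 1 of the rises (1.10) and under 2-fold without nodule 1 (0.96). Trib3, a target of ATF4, had signals of 920.3, 1366, 809, 456 and 719 in EPFs and 251, 193, 277, 279.6 and 297 in CK-19-negative nodules (1.64, adjusted p = 2.81e-07 from limma). Xbp1 (-1.27) and Herpud1 (-1.28), both of the endoplasmic reticulum stress response, fell, and Hspa5 (0.06), its main chaperone, was not called.

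Regulators of the hepatocyte moved both ways. Of 23 hepatocyte transcription factors and nuclear receptors, 2 rose (8.70%) and 4 fell (17.4%). Id1, an inhibitor of differentiation factors, had signals of 946, 879, 935, 849 and 1118 in EPFs, against 241, 289, 304, 226 and 270.2 in CK-19-negative nodules (1.83, adjusted p = 1.64e-09 from limma). Foxa3 rose (1.16), and Nr1i3, the receptor CAR, fell (-1.30). Nr1i3 averaged 1142 ± 271 in EPFs and 2768 ± 291 in CK-19-negative nodules. Its mean was 1405 ± 375 in control livers and 2772 ± 377 in CK-19-positive nodules (SD, n = 5 each). Onecut1, a factor of hepatocyte and bile duct development, had signals of 1224, 1250.4, 1121, 839 and 2928 in EPFs and 2259, 1505, 5453, 4495 and 4212 in CK-19-negative nodules. Pool 5 lay above nodules 1 and 2 (-1.28, adjusted p = 0.00693 from limma). Hnf4a, a central factor of the hepatocyte, differed by -0.45 (adjusted p = 0.00135 from limma), under 2-fold, and Cebpa (-0.10) was not called. Of 10 genes of the insulin-like growth factor axis, 2 rose and 2 fell (20% each). Igfbp3, a binding protein of the growth factor, averaged 361 ± 42.2 in EPFs and 1349.7 ± 398 in CK-19-negative nodules (n = 5 each, ± SD), a difference of -1.85 (adjusted p = 5.9e-08 from limma). The receptor Igf2r, which clears IGF2, rose by 1.09 (adjusted p = 8.88e-08). The other rise, the binding protein Igfbp1 (1.03, adjusted p = 0.0194 from limma), had overlapping groups. It was no longer called without EPF pool 2 (0.70) or 3 (0.85) or nodule 2 (0.90) or 3 (0.88), with the chip as a random block (0.96) or with signals under 300 raised to 300 (adjusted p = 0.0534).

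Of 5 fetal liver genes 2 rose, Aldoa and Afp. Afp, the fetal serum protein alpha-fetoprotein, had signals of 2461, 5960.2, 3771, 2455 and 3670.2 in EPFs, against 1154, 1480.2, 1474, 1371 and 1434 in CK-19-negative nodules. The groups did not overlap, with pool 2 highest and the nodules close together (1.33, SE 0.21, adjusted p = 2.12e-05 from limma). Afp averaged 788 ± 211 in CK-19-positive nodules and 1489 ± 325 in control livers (SD, n = 5 each). Of 11 biliary and oval cell markers 1 rose (9.09%) and 2 fell (18.2%), at a median of 0.42. Of the 11, 2 passed the filter only through their EPF signals and so had to be higher there. Without the filter the median over 20 members was 0.22. The falls were Onecut1 and the water channel Aqp1 (-1.03), which was under 2-fold without EPF pool 4 (-0.97) or nodule 3 (-0.97) or 5 (-0.98) and with signals under 300 raised to 300 (-0.67). Tspan8, a tetraspanin of epithelial cells, was the rise, with signals of 509, 908, 715, 820.2 and 576 in EPFs and 275, 575, 333, 187 and 242 in CK-19-negative nodules. Nodule 2 lay among the pools (1.21, adjusted p = 0.000132 from limma), and the call was lost with signals under 300 raised to 300 (0.98). Epcam, which holds epithelial cells together and marks bile ducts, differed by 0.43 (adjusted p = 0.0784 from limma). Cd24, a surface protein of the same cells, differed by 0.96 (adjusted p = 0.00368), under 2-fold, and passed 2-fold without EPF pool 1 (1.06) or 4 (1.06) and without nodule 1 (1.04), 2 (1.13) or 3 (1.02). Ggt1 and Gstp2, other markers of these lesions, are not named in the probe annotation used here and were not analysed here. Of genes that mark the zones of the liver lobule, 2 of 15 periportal (13.3%) and 3 of 15 perivenous genes (20%) fell, beside 4.79% of all genes. None rose, and the medians were -0.04 and -0.39. One of the periportal falls, the serine dehydratase gene Sds (-1.17, adjusted p = 0.04998 from limma), had overlapping groups and lost its call on leaving out any of EPF pools 2 to 4 or nodules 1 and 3 to 5, where it ranged from -1.27 to -0.75, and with no filter (adjusted p = 0.0982).

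Markers of other cell types were summed on each array. For Kupffer cells and macrophages the summed signal of the 5 markers on the array lay at 4464 to 6189 in EPFs and 6929 to 8674 in CK-19-negative nodules. Of these 5, 1 fell, Cd14, the receptor for endotoxin (-1.75), and none rose, while Ctss, a protease of macrophages in the wider list, rose (1.21). C1qa was lower without overlap but under 2-fold (-0.69, adjusted p = 0.00416 from limma). Cd163 (-0.22), Marco (-0.43) and C1qb (0.03) overlapped. Red blood cell markers (Hbb, Hba-a1, Hba-a2 and Alas2) summed to 5633 to 7050 in EPFs and 8082 to 20364 in CK-19-negative nodules, and 2 of the 4 fell, Hbb (-1.39) and Hba-a1 (-1.23), while the other 2 did not pass 200. The 2 endothelial markers on the array summed to 1418 to 1826 in EPFs and 872 to 1306 in CK-19-negative nodules, and were split: Lyve1 was 1181, 1556, 1576, 1277 and 1325 in EPFs and 527, 668, 804, 789 and 778 in CK-19-negative nodules (0.96, adjusted p = 3.48e-05 from limma), and Vwf was 238, 270.0, 237, 264 and 215 in EPFs and 345, 479, 363, 463 and 528 in CK-19-negative nodules (-0.82, adjusted p = 5.19e-05). Neither reached 2-fold, and neither overlapped. The sums of 4 stellate cell markers overlapped, at 3007 to 7005 in EPFs and 2663 to 3831 in CK-19-negative nodules. These markers were split: Col1a1 (0.47, adjusted p = 0.032 from limma) and Col1a2 (0.59, adjusted p = 0.0237) were higher in EPFs. Col3a1 (-0.51, adjusted p = 0.0376 from limma) was lower and Des differed by -0.22, and all 4 overlapped. The sums of 6 biliary and oval cell markers overlapped too, at 2861 to 5931 in EPFs and 1397 to 4284 in CK-19-negative nodules. T and B cell markers lay near background, at 478 to 610 for 3 genes in EPFs and 470 to 575 in CK-19-negative nodules. The hepatocyte markers, 5 on the array, summed to 107874 to 129789 in EPFs and 124736 to 159167 in CK-19-negative nodules, with none called. Of them, Ttr (-0.85, adjusted p = 0.000103 from limma) and Hnf4a (-0.45, adjusted p = 0.00135) were lower in EPFs without overlap. Alb (-0.04), Tf (-0.19) and Serpina1 (0.08) overlapped. The part of these cells in the called genes was not tested.

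Pools 2 and 4 stood at opposite ends for many genes of some of the lists that fell, but not of all. Pool 2 was lowest of the pools for 7 of the 8 lipogenic genes that fell, for 11 of the 19 sex-dimorphic genes and for 5 of the 15 cytochromes P450, of which pool 1 was lowest for 7. Pool 4 was highest for 5 of the lipogenic, 9 of the sex-dimorphic and 9 of the P450 genes. The last 2 lists share members. Of the 13 complement and coagulation genes that fell, pool 4 was highest for 9, but pool 5 was lowest for 7 and pool 2 for 5. Of the 6 glucose genes that fell, pool 2 was highest for 3 and lowest for 2. Of the 11 urea cycle and amino acid genes that fell, pool 2 was lowest for 3 and pool 4 also for 3. Pool 2 also had the highest Krt19, Epcam and Cd24 signals of the pools, with 1118, 1725 and 1628. Rbp7, among the genes with the widest spread in EPFs, had signals of 3735, 2859, 1224, 601 and 2268 in EPFs and 250.0, 228, 278, 239.7 and 308 in CK-19-negative nodules. Pool 4 was lowest of the pools and still above every nodule.

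**Figure D4:**
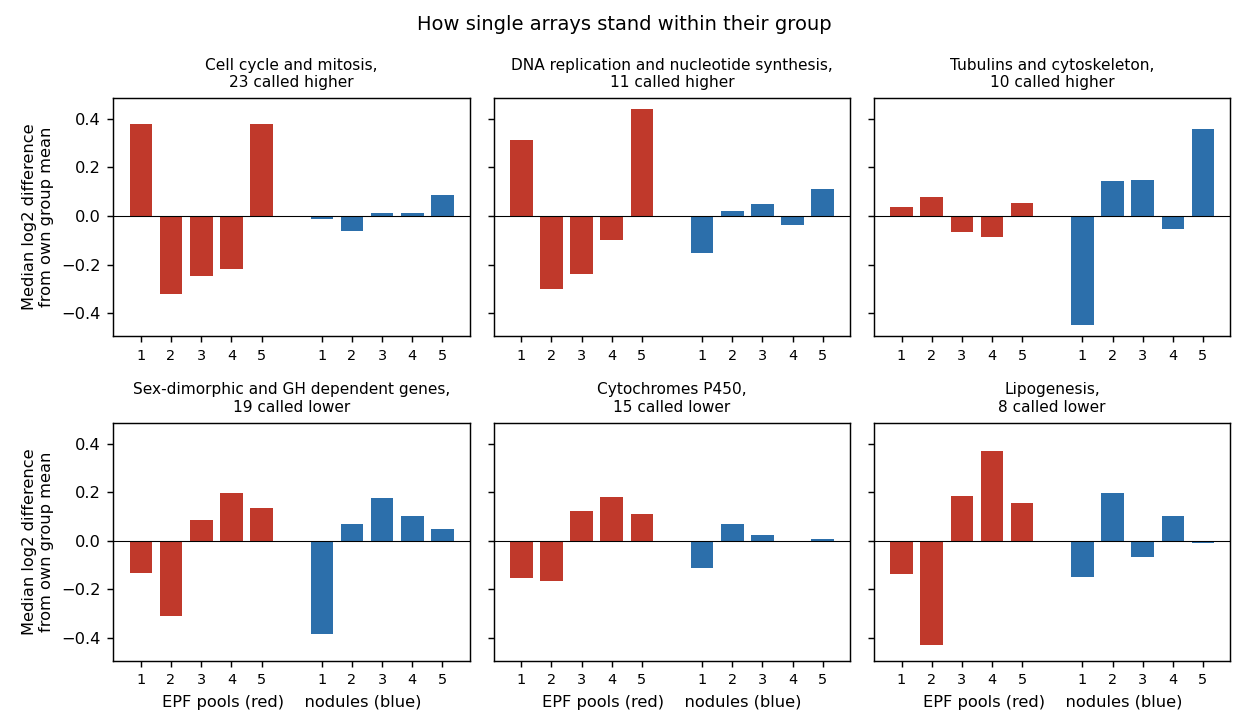
Median log2 difference of each array from the mean of its own group over the called members of 6 gene lists, for EPF pools 1 to 5 (red, left) and CK-19-negative nodules 1 to 5 (blue, right). Pools 1 and 5 stand at 0.38 for the 23 cell cycle genes, pool 2 lies at -0.43 for the 8 lipogenic genes and nodule 1 at -0.38 for the 19 sex-dimorphic genes.

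Some genes varied widely between CK-19-negative nodules. Nodules 1 and 4 had the lowest signals of Krt19, Abcb1b, Cyp2c12 and Defb1, and nodule 2 the highest of the first 3. Defb1, an antimicrobial defensin, had signals of 1609, 1113, 945, 857 and 1486 in EPFs and 315, 1168, 801, 153 and 1453 in CK-19-negative nodules. The EPF pools fell within a 1.88-fold range and the nodules within 9.51-fold, and the groups overlapped. The difference of 1.01 (SE 0.39, adjusted p = 0.0363 from limma) was no longer called without EPF pool 1 (0.89), 2 (1.03, adjusted p = 0.0529) or 5 (0.92), or without nodule 1 (0.79) or 4 (0.53). Its call was also lost in limma with no filter (adjusted p = 0.0725) and with only the 10 arrays compared (adjusted p = 0.101). The same held after subtracting the 10% point of each array (adjusted p = 0.0606 from limma). It was under 2-fold with the chip as a random block (0.96), with signals under 300 raised to 300 (0.81) and with 50 added before log2 (0.91). Trim54, known from muscle, had signals of 655, 597, 591, 729 and 599 in EPFs and 130.2, 424, 960.2, 1586 and 1396 in CK-19-negative nodules. Its group difference was -0.04 (adjusted p = 0.948 from limma), while the nodules spanned a 12.2-fold range. Nodule 1 was lowest for 12 of the 19 sex-dimorphic genes that fell in EPFs and for 8 of the 10 called cytoskeleton genes, the other nodules for at most 4 and 1 of them. Obp3 had signals of 454, 893, 2873, 3396 and 2692 in the nodules and Mup4l3 of 2233, 9039, 19282, 17189 and 10363, lowest in nodule 1 in each. Car3, a carbonic anhydrase that is higher in male rat liver, had signals of 1173, 1112, 2446, 3283 and 2041 in EPFs and 2802, 6721, 20694, 11278 and 17493 in CK-19-negative nodules. Pool 4 lay above nodule 1, and the difference was -2.36 (adjusted p = 0.000147 from limma). Ugt1a1, which joins bilirubin to glucuronic acid, stood apart in nodule 5, with 558, 860.2, 726, 843 and 764 in EPFs and 639, 1362, 952, 959.6 and 148 in CK-19-negative nodules (0.19, adjusted p = 0.755 from limma). Without nodules 1 and 2, an alternative chosen after the data were seen, 551 genes were called, of which 483 were among the 544.

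**Figure D5:**
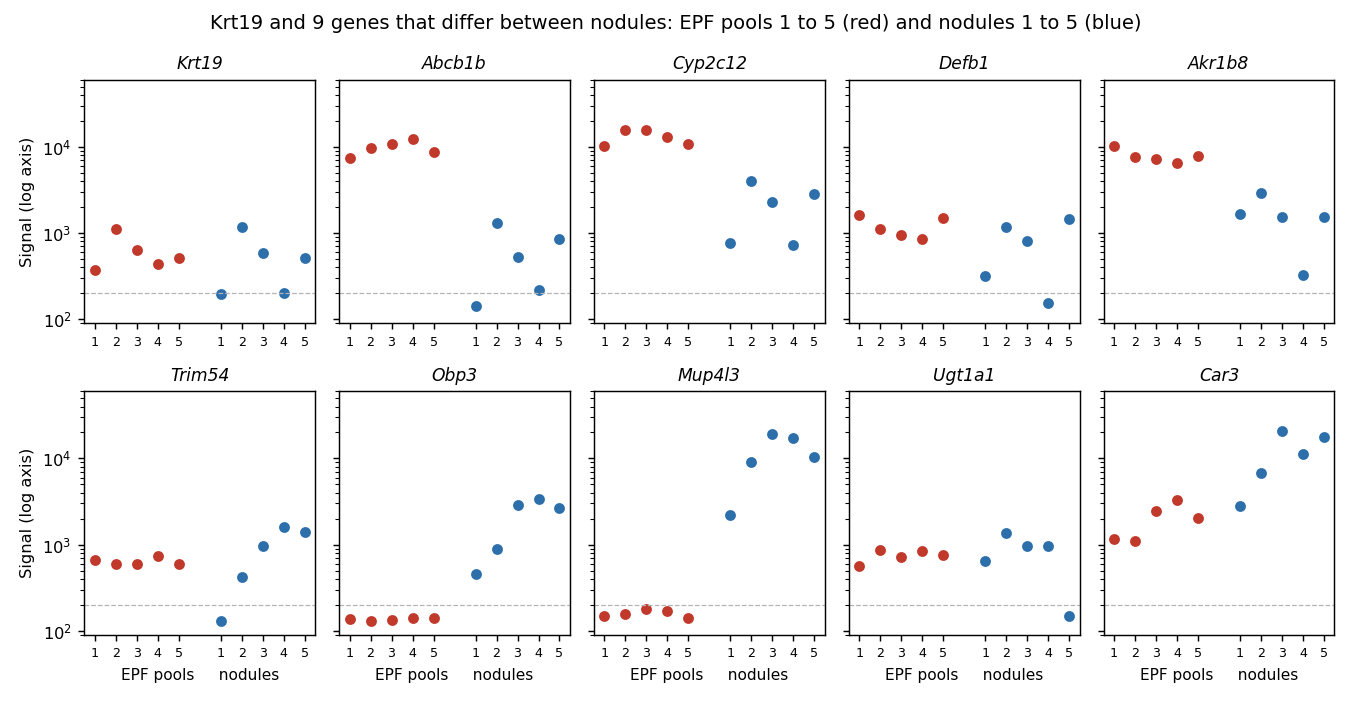
Signal on each array (log axis) for Krt19 and 9 genes that differed between nodules, EPF pools 1 to 5 in red on the left and CK-19-negative nodules 1 to 5 in blue on the right, with a dashed line at 200. Nodules 1 and 4 are low for Krt19, Abcb1b, Cyp2c12 and Defb1, and nodule 5 is low for Ugt1a1.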

How the data were processed

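RNA of 20 rat liver samples had been hybridised to Illumina RatRef-12 arrays, of which 10 are compared here. The deposited values are probe signals, a fluorescence intensity on a linear scale, that the authors read with BeadStudio (version 3.0.19.0 in the submitters' processing notes) and quantile normalized over all arrays, so that array medians lie at 157 and no array has a depth of its own. Changes that shift most genes one way are not seen after that step. A second deposited table, with 40 columns of signals and detection p-values, was not used here because no column name could be matched to a sample.

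Of 22523 probes, 13793 are paired with 1 gene by the platform annotation and 8730 were left out. Each of 13337 genes is represented by its probe with the highest mean over the 20 arrays. A gene entered the test when 5 or more arrays gave a signal over 200, and log2 signals were fitted with limma 3.58.1 in R 4.3.3. The 4 groups shared 1 estimate of the spread, and Benjamini-Hochberg adjustment ran over all 6102 genes. A gene was called at an adjusted p under 0.05 and 2-fold. The model was checked on simulated data.

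Named genes were the 15 largest rises and falls without overlap, the 4 most changed called members of each of 36 lists, 8 markers and the 8 genes with the widest spread in each group. Another 38 called genes, and the genes given as not called, were named after their values were seen. Members and lists were chosen with earlier results of these data known. Replicate numbers only name arrays. Python 3.11.15 with pandas 2.3.3 and matplotlib 3.10.9 made the tables and plots.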

Additional observations from a re-analysis of the deposited data

Results flagged for a closer look

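Single arrays stood far from the other 4 of their group in 14 of 310 tests, in which the gap to the nearest array was over 0.71 of the range of the group. Chance flags about 1 in 20 groups of this size, so that a total of 14 in 310 is no more than chance gives. CK-19-negative nodule 1 accounted for 5 of the 14 and nodule 2 for 4. Among the EPFs, pool 5 had an A2m signal of 521, against 2297 to 3969 in the other pools, pool 2 a Gsta3 signal of 4435 (others 5769 to 6270), pool 1 a Gpx2 signal of 3949.8 (others 3137 to 3315) and pool 4 a Cat signal of 4181 (others 3412 to 3555).

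CK-19-negative nodule 1 was lowest for A2m with 128 (other nodules 191 to 211), for Cyp2c11 with 4269 (others 15967 to 22156), for Phlda3 with 267 (others 328 to 355) and for Ucp2 with 325 (others 476 to 521), and highest for Serpina4 with 5649 (others 3526 to 3921). Nodule 2 was highest for Baat with 10852 (others 6349 to 7401), for Acsl1 with 20809 (others 14407 to 15704) and for Mybl1 with 558 (others 185 to 253), and lowest for Sds, a serine dehydratase, with 4469 (others 10900.5 to 15589). Nodule 3 was highest for Thrsp with 28715 (others 24330.2 to 25191).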

How the results depend on the processing

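Of 3495 values of 153 single genes (Gstp1 and Krt19 apart) under 23 settings that keep both thresholds, 3417 kept their direction and their side of the threshold, 71 were no longer called (35 of them on leaving out 1 array), 7 were newly called (Cd24 each time) and none reversed. With the study's filter (a median signal over 300 and enough variation between arrays) 461 of 1315 genes were called, 4 of them in the cell cycle and 4 in the replication list, and 23 named genes were not tested. With signals under 300 raised to 300 the lists had 11 and 6 called members. After subtracting the 10% point of each array 1165 genes were called, with 580 higher and 585 lower, 18 replication genes and 9 NRF2 targets higher. At the adjusted p with no fold threshold the counts were 3198 genes, 1628 higher and 1570 lower, with 21 replication genes and 26 NRF2 targets higher and 25 cytochromes P450 lower. Leaving out 1 array at a time gave 534 to 585 called genes, 250 to 279 higher and 278 to 306 lower, 21 to 23 cell cycle, 10 to 16 replication and 5 to 8 NRF2 genes higher, and 14 to 16 cytochromes P450 lower. Krt19 then differed by 0.14 to 0.78 and Gstp1 by 0.91 to 1.03, the highest without nodule 1. Without nodule 1 or nodule 2 the NRF2 count was 8. Without both, a setting added after the data were seen, it was 9, and Gstp1 differed by 1.06. With the chip as a random block 539 genes were called, of which 535 were among the 544. This setting cannot take a chip effect out of the comparison, because all EPF arrays lay on a chip of their own. The cause of these changes was not tested. No paired analysis was possible because the replicate numbers only name the arrays and pair none across groups. Signals under 200 cannot be told from background, and the folds of dim genes are understated.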

Other observations

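Of the 544 called genes, 346 were in no list, 157 of them higher and 189 lower in EPFs, and a few of these are given here, chosen after their values were seen. Further genes of dividing cells rose, among them Mybl1, a transcription factor (2.09), the spindle motor Kifc1 (1.97), the spindle assembly factor Tpx2 (1.63) and Gmnn, the inhibitor of replication licensing (1.76). Phgdh and Psph, the first and last enzymes of serine synthesis, had signals of 1068, 1097, 759, 642 and 805 for Phgdh in EPFs, against 156, 197, 302, 197 and 309 in CK-19-negative nodules, and of 2241, 1984, 1771, 1349 and 1554 for Psph in EPFs, against 459.7, 621, 618, 646 and 759 in CK-19-negative nodules. Neither gene overlapped between the groups, and the differences were 1.93 (adjusted p = 1.96e-08) and 1.52 (adjusted p = 2.01e-08 from limma). Mgmt, which removes alkyl groups from guanine in DNA, averaged 1622 ± 426 in EPFs and 447 ± 74.8 in CK-19-negative nodules (n = 5 each, ± SD), a difference of 1.83 (adjusted p = 6.59e-09 from limma). Gpx3, a secreted glutathione peroxidase, rose by 1.77.

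Ang and Rnase4, secreted ribonucleases that share a locus, fell together. Ang averaged 2491 ± 459.5 in EPFs and 14680.4 ± 1745 in CK-19-negative nodules and Rnase4 6015 ± 1243 in EPFs and 25700.1 ± 2756 in CK-19-negative nodules (n = 5 each, ± SD), with differences of -2.57 and -2.11 and an adjusted p of 2.52e-10 and 2.92e-11 from limma. Gpld1, a secreted phospholipase (-2.52), Ndrg2 (-2.23), Pc, the pyruvate carboxylase that feeds gluconeogenesis (-1.85), Dio1, which activates thyroid hormone (-1.77), and Cat, the peroxisomal catalase (-1.76), were also lower in EPFs.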
